A study of Rattus norvegicus with 24 samples.

Results

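The genes described here are the cytochrome P450 genes of the rat outside family 1, measured in lung exposed to whole-cigarette smoke condensate (WCSC). They were found by their symbols in the count files, as every gene whose name starts with Cyp followed by a family number other than 1, a letter and, where present, a further number. This gave 70 of 16881 gene symbols. Reads were found for 52 of them in at least 1 library, and 18 had 0 reads in all 24 libraries. With "expressed" taken as a mean of at least 1 CPM (counts scaled to a library of 1e+06 reads) over the 24 libraries, 27 of the 70 were expressed. Cyp51, Tbxas1 and Ptgis encode P450 enzymes too, but their symbols differ from the pattern and they are not among the 70.

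P450 enzymes are heme proteins that insert 1 atom of oxygen into their substrate, with electrons passed on by NADPH-P450 reductase in the endoplasmic reticulum or by ferredoxins in mitochondria. Families 2 and 3 are known for oxidising drugs, toxicants and arachidonate, and family 4 for hydroxylating fatty acids and leukotrienes. The other families make or break down bile acids, cholesterol, steroid hormones, retinoic acid and vitamin D. In rodent lung the toxicant-oxidising enzymes are known mainly from club cells, the secretory cells of the small airways, and from type II cells of the alveoli, where some of them turn inhaled chemicals into reactive products.

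The 24 libraries came from wild-type rat lung and fell into 8 groups of 3. At 6 days and again at 12 days there were lungs exposed to WCSC at 5, 10 and 20 mg/mL and control lungs. The labels do not give the strain, sex or age of the rats, the route of exposure, what the controls received, or whether each replicate was its own animal, so a p-value here reflects the spread between libraries. Totals ranged from 4758014 to 10989792 counts per library, with a median of 6795265. Sftpc, the marker of type II cells, averaged 9647 CPM and Scgb1a1, the marker of club cells, 11309 CPM, as the label lung implies. Of 7 hepatocyte markers Serpina1 averaged 20.0 CPM, and the other 6 had between 1 (Ttr) and 90 reads (Apoa1) in all libraries together, with 62 for Alb. Of 3 markers of the adrenal cortex Star had 349 reads, Mc2r 73 and Hsd3b1 0. Of 5 macrophage markers Mrc1 averaged 129 CPM, Cd68 37.1 CPM, Siglec1 4.73 CPM and Msr1 2.33 CPM, while Marco had 0 reads. In replicate 2 of 20 mg/mL at 12 days the 7 heart muscle markers summed to 2985 CPM, against a median of 68.2 CPM over the 24 libraries, and this library recurs among the results.

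A cluster on chromosome 1 holds 13 of the 70 genes, which RefSeq (build GRCr8) orders as Cyp2s1, Cyp2b1, Cyp2b2, Cyp2b3, Cyp2b21, Cyp2b12, Cyp2b15, Cyp2g1, Cyp2a3, Cyp2a1, Cyp2a2, Cyp2f4 and Cyp2t1. The windows from 250 bases before to 50 bases after the annotated start of 4 of these genes are shown, because Cyp2b1 and Cyp2b2 hold many of the reads and are near-identical copies, and because Cyp2a3 and Cyp2f4 varied most between libraries. All 4 lie on the plus strand, at chr1:90645869-90646168 for Cyp2b1, chr1:90722031-90722330 for Cyp2b2, chr1:91299334-91299633 for Cyp2a3 and chr1:91543518-91543817 for Cyp2f4. Capitals mark matches on either strand to 3 letter strings: TATAAA (the TATA box), TGTTTAC (a forkhead site) and GCGTG (the core of the dioxin response element). Where a match lies on the minus strand, its reverse complement stands in capitals.
Cyp2b1: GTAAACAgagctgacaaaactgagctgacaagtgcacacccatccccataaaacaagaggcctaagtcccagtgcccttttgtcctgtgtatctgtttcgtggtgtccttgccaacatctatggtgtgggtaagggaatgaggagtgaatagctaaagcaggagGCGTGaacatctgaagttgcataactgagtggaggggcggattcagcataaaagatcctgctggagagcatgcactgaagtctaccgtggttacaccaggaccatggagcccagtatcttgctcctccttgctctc
Cyp2b2: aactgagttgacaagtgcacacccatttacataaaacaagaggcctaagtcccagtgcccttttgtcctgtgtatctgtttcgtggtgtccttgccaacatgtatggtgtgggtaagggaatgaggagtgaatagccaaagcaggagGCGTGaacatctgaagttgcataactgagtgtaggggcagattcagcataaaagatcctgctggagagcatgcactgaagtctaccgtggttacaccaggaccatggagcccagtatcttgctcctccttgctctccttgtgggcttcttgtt
Cyp2a3: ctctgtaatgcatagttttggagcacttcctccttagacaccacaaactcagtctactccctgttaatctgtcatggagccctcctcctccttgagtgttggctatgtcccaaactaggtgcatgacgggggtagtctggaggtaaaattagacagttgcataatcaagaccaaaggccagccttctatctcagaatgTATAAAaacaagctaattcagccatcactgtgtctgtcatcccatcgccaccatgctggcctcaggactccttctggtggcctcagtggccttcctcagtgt
Cyp2f4: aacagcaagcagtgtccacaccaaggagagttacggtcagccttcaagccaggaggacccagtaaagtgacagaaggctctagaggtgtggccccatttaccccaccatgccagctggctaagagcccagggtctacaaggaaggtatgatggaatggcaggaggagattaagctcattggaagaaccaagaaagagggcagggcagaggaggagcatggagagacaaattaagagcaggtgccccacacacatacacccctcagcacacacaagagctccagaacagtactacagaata
The windows of Cyp2b1 and Cyp2b2 were identical at 275 of 283 aligned bases (97.2%), while the other 5 pairs had 58.7% to 64.3% identity. GCGTG occurred in both Cyp2b windows, the forkhead string in Cyp2b1 (on the minus strand), TATAAA in Cyp2a3, and none of the 3 strings in Cyp2f4. Of 33469 rat windows of this length, 29.7% hold GCGTG, 14.2% TATAAA and 3.78% TGTTTAC. Of the 24 expressed P450 genes with a window in the table, 10 held GCGTG, 3 TATAAA and 2 TGTTTAC. These are matches of letters and carry no information on binding.

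The 4 P450 genes with the most reads were Cyp2b1, Cyp4b1, Cyp26b1 and Cyp2b2. Together they held 40.1% to 81.1% of the summed CPM of the 70 genes, with a median of 75.8% over the libraries. CPM are not divided by transcript length. The labels do not state whether the kit reads only the ends of transcripts or their whole length. The order given here is therefore one of reads per library and may differ from that of transcripts. The summed level of all 70 genes lay between 1269 and 1900 CPM (median 1572 CPM). At 12 days it averaged 1609 ± 122 CPM in control, 1633 ± 102 CPM at 5 mg/mL, 1701 ± 108 CPM at 10 mg/mL and 1604 ± 256 CPM at 20 mg/mL (SD, n = 3 each). At 6 days it averaged 1532 ± 103 CPM in control, 1514 ± 233 CPM at 5 mg/mL, 1503 ± 60.1 CPM at 10 mg/mL and 1482 ± 143 CPM at 20 mg/mL. Within either day the group means lay closer together than the largest SD of a group.

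**Figure D1:**
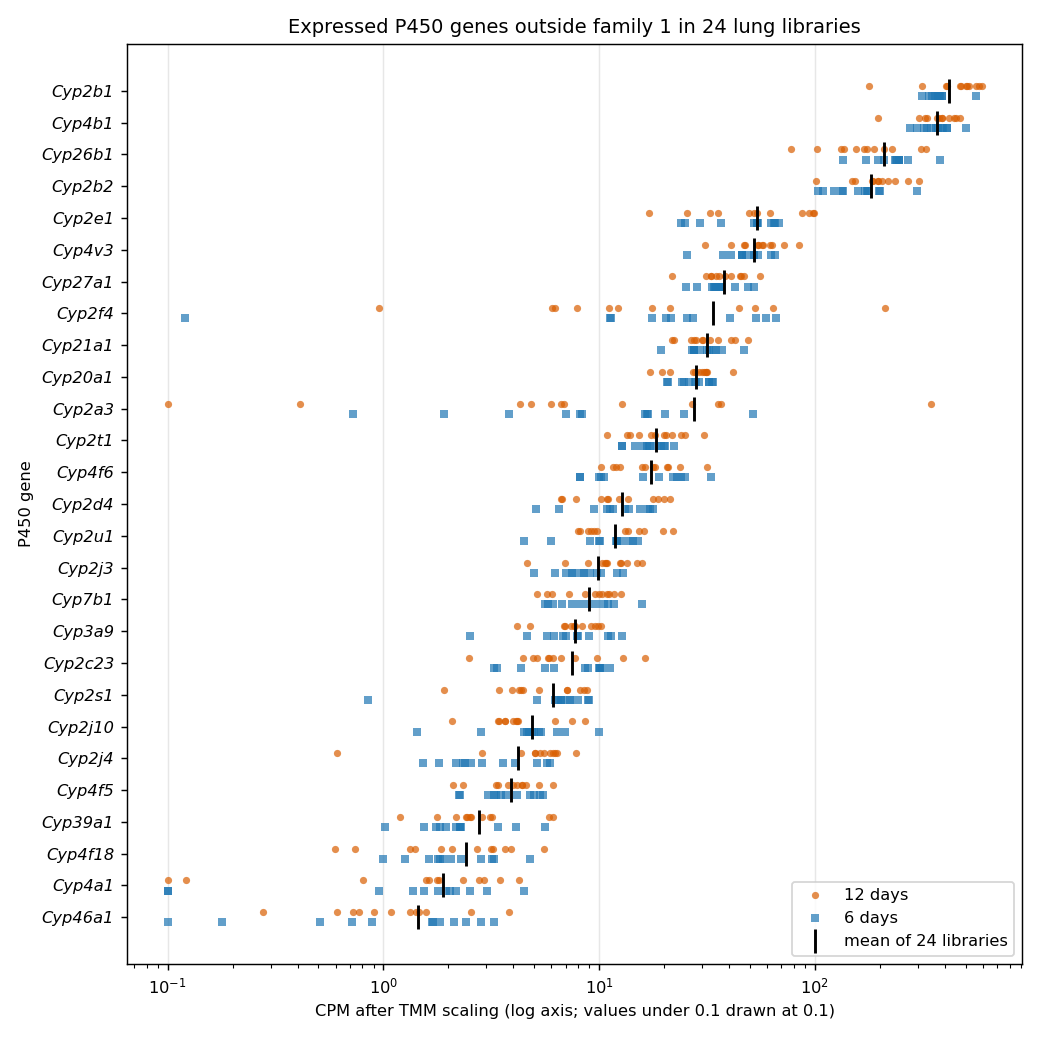
Each row is 1 of the 27 expressed P450 genes, ordered by mean level; the x axis is CPM on a log scale, circles are the 12 libraries of 12 days, squares those of 6 days, and the black bar is the mean of all 24. The means of Cyp2b1, Cyp4b1, Cyp26b1 and Cyp2b2 stand above 100 CPM, though Cyp26b1 falls to 77.5 CPM in its lowest library. Cyp2f4 and Cyp2a3 spread over more than any other gene shown.

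Among the genes for drugs, toxicants and arachidonate (families 2 and 3), 14 of 36 were expressed and 10 had 0 reads. Cyp2b1, the form that phenobarbital induces in rat liver and that rat lung makes without an inducer, averaged 420 CPM (178 to 593 CPM over the libraries). Its close copy Cyp2b2 averaged 182 CPM (101 to 304 CPM). Reads that match both copies could be counted for either, since the counting rules are not given, so the split between them is uncertain. Their sum ranged from 279 to 846 CPM, and Cyp2b2 took 21.9% to 49.1% of it.

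Cyp2e1, which oxidises ethanol and small solvents, averaged 54.0 CPM. Cyp2f4, the naphthalene-activating enzyme known from club cells, averaged 33.7 CPM and Cyp2a3, known in rat lung and nose for activating the tobacco nitrosamine NNK, 27.5 CPM. Their medians were lower, at 20.9 CPM for Cyp2f4 and 8.25 CPM for Cyp2a3. Next came Cyp2t1 (mean 18.3 CPM), the drug-metabolising Cyp2d4 (12.8 CPM) and the fatty acid hydroxylase Cyp2u1 (11.9 CPM). The arachidonate epoxygenases averaged 9.86 CPM for Cyp2j3, 7.51 CPM for Cyp2c23 and 4.23 CPM for Cyp2j4. Cyp3a9, the expressed member of the steroid- and drug-oxidising family 3, averaged 7.73 CPM, Cyp2s1 averaged 6.10 CPM and Cyp2j10 4.87 CPM. Some members that are abundant in rat liver, though not all, were at 0 reads (Cyp2c7, Cyp2c12, Cyp2c13, Cyp3a2, Cyp3a18) or near it (Cyp2c11, 4 reads).

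Among the fatty acid hydroxylases of family 4, 6 of 15 were expressed and 3 had 0 reads. Cyp4b1, a lung P450 known for activating the pneumotoxin 4-ipomeanol, averaged 370 CPM (197 to 504 CPM). Cyp4v3, whose human counterpart CYP4V2 hydroxylates fatty acids in the eye, averaged 52.1 CPM (25.6 to 84.2 CPM). Cyp4f6, of the subfamily that inactivates leukotrienes, averaged 17.5 CPM, and its relatives Cyp4f5 and Cyp4f18 averaged 3.92 CPM and 2.42 CPM. Cyp4a1, which peroxisome proliferators induce in rat liver, averaged 1.89 CPM.

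Among the bile acid and cholesterol genes, 4 of 6 were expressed. These were the sterol 27-hydroxylase Cyp27a1 (mean 37.7 CPM), the oxysterol 7-alpha-hydroxylase Cyp7b1 (9.02 CPM), Cyp39a1 (2.77 CPM), which acts on 24-hydroxycholesterol, and the brain cholesterol hydroxylase Cyp46a1 (1.45 CPM). Cyp7a1, the rate-limiting enzyme of bile acid synthesis in liver, had 11 reads in all, and Cyp8b1 had 0. Of 7 steroid hormone genes only Cyp21a1, the steroid 21-hydroxylase, was expressed, at a mean of 31.8 CPM (19.4 to 48.9 CPM). Cyp11a1 and Cyp17a1, which start steroid synthesis and lead it to androgens, had 0 reads. Of 5 vitamin D and retinoic acid genes only Cyp26b1, which breaks down retinoic acid, was expressed, at a mean of 209 CPM (77.5 to 380 CPM). Cyp26a1 had 23 reads, Cyp27b1 59 and Cyp24a1 0. Cyp20a1, with no known substrate, ranged from 17.3 to 41.6 CPM.

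The genes at 0 reads were Cyp11a1, Cyp11b3, Cyp17a1, Cyp24a1, Cyp2a1, Cyp2b15, Cyp2c12, Cyp2c13, Cyp2c24, Cyp2c7, Cyp2g1, Cyp3a18, Cyp3a2, the entry written Cyp3a23 /3a1, Cyp4a2, Cyp4f1, Cyp4x1 and Cyp8b1. With 169636953 counts in all, 0 reads allow a mean level of up to 0.0177 CPM (3 counts, covering counting error only). Reads lost in mapping or counting are not covered by this limit, and the macrophage marker Marco had 0 reads too. Whether the 0 reads of these P450 genes reflect low expression or the counting of reads was not tested. A further 25 genes had reads but a mean under 1 CPM. For example, Cyp4f17 had 79 reads and Cyp3a62 61, while Cyp19a1, the aromatase, had 1. Of the 70 genes, 15 reached a mean of 10 CPM and 24 had a read in every library. The filter on low counts left 28 genes for testing, the 27 expressed ones and Cyp2d1, a drug-metabolising form at a mean of 0.958 CPM.

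In the comparisons of WCSC with control, 0 of the 28 tested P450 genes passed the adjusted threshold of 0.05 in edgeR's quasi-likelihood test, at any dose or day. DESeq2 called 0 as well, and so did limma voom run with sample quality weights. At 12 days, 0 of the 28 tested genes had an unadjusted p under 0.05 at 5 mg/mL, against 2 at 10 mg/mL and 2 at 20 mg/mL. The shares of all 11421 tested genes under that threshold were, by rising dose, 1.25%, 2.09% and 3.69%. At 6 days the counts by rising dose were 2, 0 and 1, beside 4.71%, 2.70% and 4.06% of all genes. By edgeR's adjusted p, 0 (that is, 0%) of all tested genes passed in each of these 6 comparisons. The median log2 fold change of the 28 genes lay between -0.11 and 0.08 in the 6 comparisons, where that of all genes lay between -0.01 and 0.01. The 95% interval of a P450 gene's log2 fold change had a median width of 1.82 to 1.85.

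**Figure D2:**
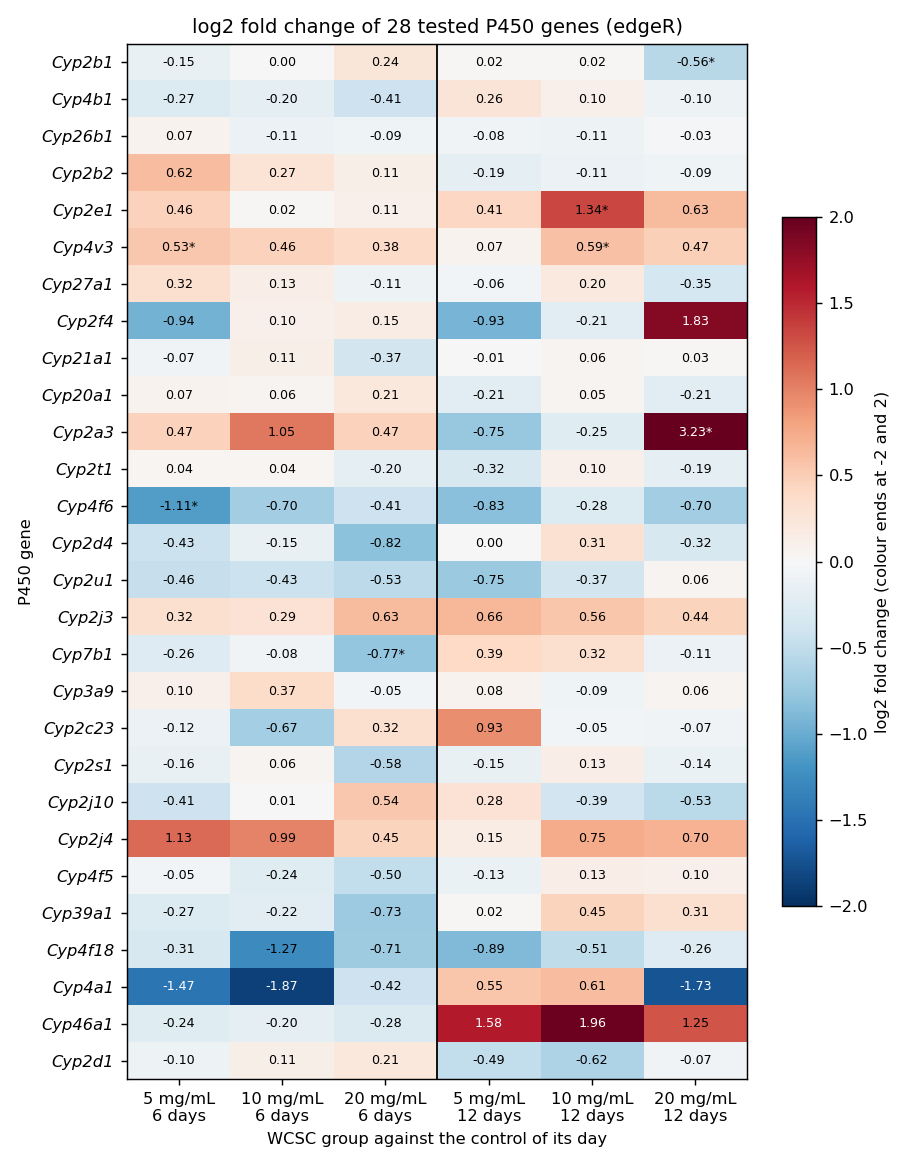
Rows are the 28 tested P450 genes by mean level and columns are the 6 WCSC groups, each against the control of its day; colour and number give the edgeR log2 fold change, and an asterisk marks an unadjusted p under 0.05. Asterisks stand in 7 cells, and every adjusted p was above 0.05.

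At 20 mg/mL and 12 days the P450 gene with the smallest p was Cyp2a3. Its level was 35.6, 343 and 5.98 CPM in the libraries exposed to 20 mg/mL, against 0, 36.7 and 4.30 CPM in control. The groups overlapped, and the high mean of the exposed group came from replicate 2. The log2 fold change was 3.23 (SE 1.42), with an unadjusted p of 0.0325 and an adjusted p of 0.998 in edgeR. Without replicate 2 of 20 mg/mL it was 0.59, and with the mean of the club cell markers as a covariate it was 1.59. That library lay farthest of all from the median of the club cell markers. The covariate and the left-out library are therefore not separate checks, and neither tests a cause. In the same comparison the 7 heart muscle markers summed to 29.7 to 2985 CPM at 20 mg/mL and to 39.4 to 139 CPM in control, with 6 of 6 tested markers positive. The 9 club cell markers summed to 12341 to 20671 CPM at 20 mg/mL and to 9297 to 13352 CPM in control (7 of 8 tested markers positive). The 6 ciliated cell markers summed to 366 to 774 CPM and to 377 to 472 CPM (5 of 6 positive). The heart markers Myh6, Myl7 and Nppa were at 0 in 17, 18 and 18 of the 24 libraries. In bulk lung, fewer cells of a type and less RNA per cell cannot be told apart.

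Cyp2b1 stood at 315, 178 and 517 CPM at 20 mg/mL and 12 days, against 576, 502 and 408 CPM in control. Replicates 1 and 2 of 20 mg/mL lay below every control and replicate 3 lay among them. The log2 fold change was -0.56 (SE 0.26, unadjusted p = 0.0445, edgeR adjusted p = 0.998), and -0.25 without replicate 2 of 20 mg/mL. Markers of alveolar and vessel cells were low in that replicate too. The 7 type II markers summed to 7120 to 22123 CPM at 20 mg/mL and to 17590 to 20259 CPM in control (3 of 7 tested markers positive), the 5 type I markers to 2654 to 8667 CPM and 6650 to 9192 CPM (1 of 5 positive), and the 6 endothelial markers to 1112 to 2280 CPM and 2128 to 2754 CPM (0 of 6 positive). Replicate 2 held the lowest of each of these sums at 20 mg/mL, and their part in the Cyp2b1 values was not tested. In replicate 1 Cyp2b2 was the highest of all libraries, at 304 CPM, and the sum of both copies was 619, 279 and 714 CPM at 20 mg/mL, against 846, 687 and 594 CPM in control. For Cyp4v3 the values were 62.2, 54.7 and 71.9 CPM at 20 mg/mL and 30.9, 47.5 and 57.6 CPM in control (log2 fold change 0.47, SE 0.25). Cyp4f6 stood at 20.8, 12.5 and 10.3 CPM at 20 mg/mL and at 31.5, 20.6 and 18.2 CPM in control (log2 fold change -0.70, SE 0.41). Both groups overlapped for each of these genes.

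At 10 mg/mL and 12 days, Cyp2e1 had 93.6, 87.6 and 98.5 CPM in the exposed libraries, against 25.7, 32.5 and 52.2 CPM in control. All 3 exposed libraries lay above all 3 controls. The log2 fold change was 1.34 (SE 0.46), the unadjusted p 0.00802 and the adjusted p 1.00 in edgeR, so this difference did not pass over all genes. At the other doses of 12 days Cyp2e1 had 35.6, 61.6 and 49.7 CPM at 5 mg/mL and 53.6, 17.1 and 99.3 CPM at 20 mg/mL, and both groups overlapped the control. At 6 days the values were 54.0, 53.9 and 24.1 CPM in control, 65.4, 52.0 and 64.4 CPM at 5 mg/mL, 36.6, 29.3 and 67.9 CPM at 10 mg/mL, with 54.6, 62.6 and 24.9 CPM at 20 mg/mL, where each exposed group overlapped the control. Cyp4v3 at 10 mg/mL and 12 days had 57.0, 84.2 and 63.3 CPM, against 30.9, 47.5 and 57.6 CPM in control (log2 fold change 0.59, SE 0.25, unadjusted p = 0.0298, edgeR adjusted p = 1.00).

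At 5 mg/mL and 12 days the smallest p-values were those of Cyp4f6 and Cyp2u1. Cyp4f6 had 12.0, 11.6 and 15.7 CPM at 5 mg/mL, all below the controls at 31.5, 20.6 and 18.2 CPM (log2 fold change -0.83, SE 0.41, unadjusted p = 0.0532, edgeR adjusted p = 1.00). Cyp2u1 had 9.82, 8.14 and 8.90 CPM at 5 mg/mL and 19.8, 9.21 and 16.1 CPM in control. These groups overlapped, with a log2 fold change of -0.75 (SE 0.39).

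At 20 mg/mL and 6 days the smallest p was that of Cyp7b1. It had 6.09, 5.79 and 6.76 CPM in the exposed libraries, against 10.6, 9.62 and 11.7 CPM in control, and the groups did not overlap. The log2 fold change was -0.77 (SE 0.37), with an unadjusted p of 0.0476 and an adjusted p of 1.00 in edgeR. At 12 days the same dose gave 5.15, 11.7 and 5.74 CPM, against 6.06, 9.57 and 8.60 CPM in control, and these groups overlapped. Cyp4b1 had 346, 321 and 297 CPM at 20 mg/mL and 6 days, below the controls at 411, 504 and 363 CPM (log2 fold change -0.41, SE 0.23, unadjusted p = 0.0953). Cyp2d4 was below the controls as well, at 5.08, 11.6 and 9.44 CPM against 13.8, 15.4 and 17.2 CPM in control (log2 fold change -0.82, SE 0.44). Cyp2j3 was above them, at 10.2, 12.9 and 9.06 CPM against 8.29, 5.01 and 7.46 CPM in control (log2 fold change 0.63, SE 0.35). In this comparison the 5 macrophage markers summed to 214 to 245 CPM at 20 mg/mL and to 134 to 198 CPM in control, without overlap, and 4 of 4 tested markers were positive (median log2 fold change 0.80, 2 of them at an unadjusted p under 0.05). The 9 club cell markers summed to 4175 to 13805 CPM at 20 mg/mL and to 10722 to 18662 CPM in control (5 of 8 tested markers positive). The part of these cells in the P450 values was not tested.

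At the lower doses and 6 days, Cyp4f6 had 8.15, 10.2 and 16.01 CPM at 5 mg/mL, all below the controls at 18.9, 22.0 and 32.9 CPM. The log2 fold change was -1.11 (SE 0.41), with an unadjusted p of 0.0127 and an adjusted p of 0.896 in edgeR. Cyp4v3 had 62.9, 45.95 and 54.4 CPM at 5 mg/mL, against 46.2, 40.9 and 25.6 CPM in control, and replicate 2 of 5 mg/mL lay just under the highest control (log2 fold change 0.53, SE 0.25, unadjusted p = 0.0453, edgeR adjusted p = 0.896). At 10 mg/mL the smallest p was that of Cyp4f18, known in mouse for oxidising leukotriene B4, with 1.79, 0.994 and 1.26 CPM against 3.19, 1.90 and 4.79 CPM in control (log2 fold change -1.27, SE 0.67, unadjusted p = 0.0722). Cyp4v3 followed, with 52.4, 65.6 and 37.5 CPM at 10 mg/mL (log2 fold change 0.46, SE 0.25).

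The libraries of an exposed group and of its control did not overlap for 4 of the 28 P450 genes at 5 mg/mL and 12 days, for 2 at 10 mg/mL and for 2 at 20 mg/mL. Over all tested genes the groups did not overlap for 7.79%, 8.46% and 7.67% in these comparisons. At 6 days this held for 3 P450 genes at the lowest dose, 4 at the middle dose and 5 at the highest, beside 8.33%, 6.22% and 8.75% of all genes. The genes so separated at 12 days were Cyp7b1, Cyp2j3 and Cyp46a1 (higher) with Cyp4f6 (lower) at 5 mg/mL, Cyp2e1 and Cyp46a1 (higher) at 10 mg/mL, and Cyp2j4 and Cyp46a1 (higher) at 20 mg/mL. At 6 days they were Cyp4a1, Cyp4f6 and Cyp2b1 (lower) at 5 mg/mL, Cyp2j4 (higher) with Cyp4f18, Cyp2u1 and Cyp4a1 (lower) at 10 mg/mL, and Cyp2j3 (higher) with Cyp7b1, Cyp2u1, Cyp4b1 and Cyp2d4 (lower) at 20 mg/mL. Cyp46a1 had at most 25 reads in a library. Its controls of 12 days, shared by all doses of that day, had 3, 4 and 2 reads, beside 8, 4 and 12 at 20 mg/mL.

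**Figure D3:**
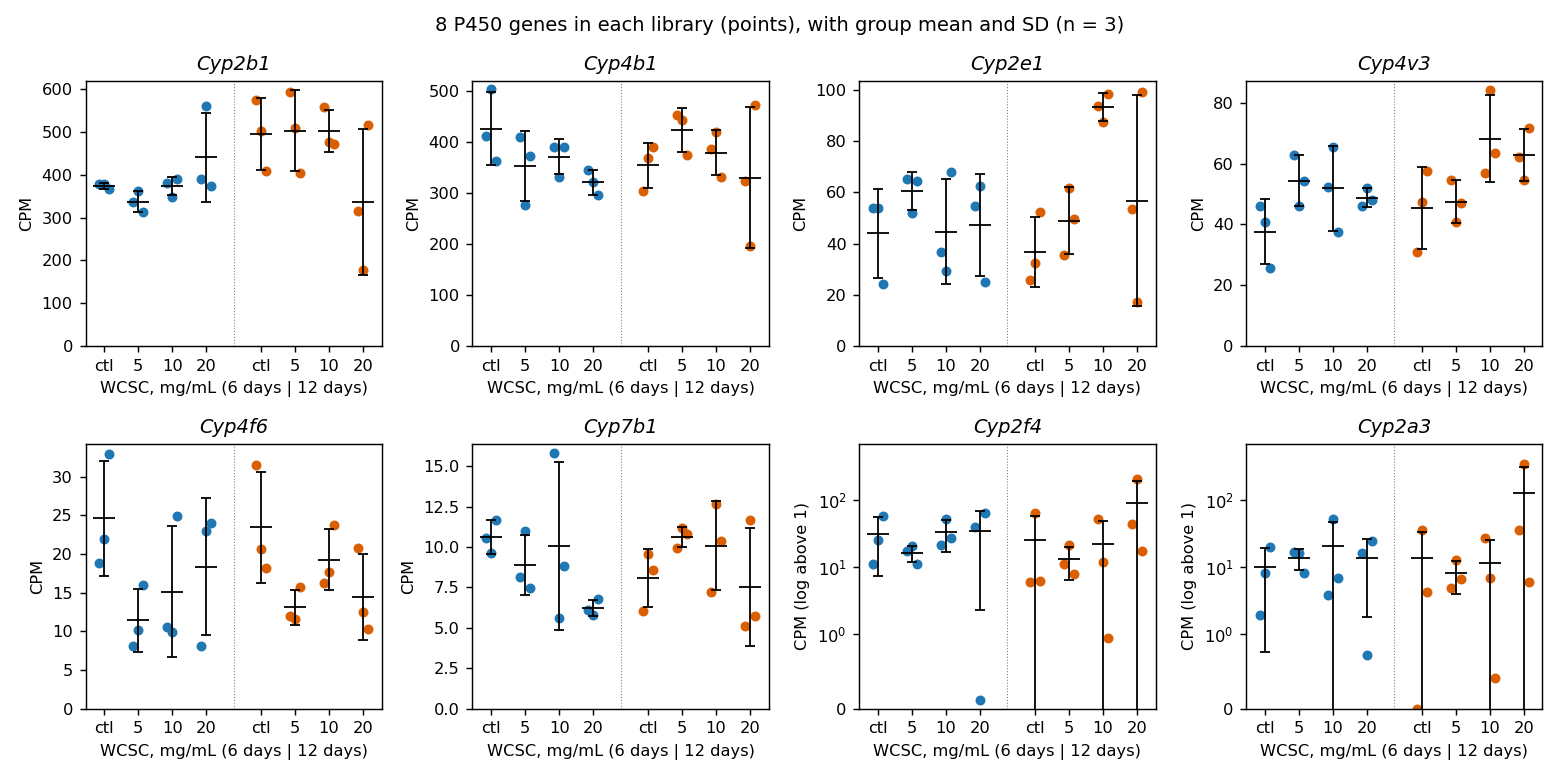
Each panel shows 1 P450 gene, with CPM on the y axis and the control and 3 WCSC doses on the x axis, 6 days on the left and 12 days on the right; points are libraries, and the bar with whiskers is the mean and SD of 3. Cyp2f4 and Cyp2a3 have a log axis above 1 CPM, where whiskers that pass below 0 stop at the axis. Replicate 2 of 20 mg/mL at 12 days is the lowest Cyp2b1, Cyp4b1 and Cyp2e1 point and the highest Cyp2f4 and Cyp2a3 point.

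A slope linear in dose, averaged over both days, was tested as 1 contrast over all 24 libraries. In edgeR 0 of the 28 P450 genes passed the adjusted threshold, beside 3 of all tested genes (0.0263%), and 2 had an unadjusted p under 0.05, beside 3.54% of all genes. DESeq2 and limma voom also called 0 P450 genes. Cyp4v3 had a slope of 0.20 per 10 mg/mL on the log2 scale (SE 0.08, unadjusted p = 0.0299, edgeR adjusted p = 1.00). Its 6 log2 fold changes against control were, by rising dose, 0.07, 0.59 and 0.47 at 12 days and 0.53, 0.46 and 0.38 at 6 days. The 3 values of a day share their controls, and control replicate 3 of 6 days was the lowest of all 24 libraries for this gene. Without that control the fold change at 10 mg/mL and 6 days was 0.25 and that at 5 mg/mL was 0.32. Cyp2a3 had a slope of 1.00 per 10 mg/mL (SE 0.45, unadjusted p = 0.0369, edgeR adjusted p = 1.00), but 0.32 without replicate 2 of 20 mg/mL at 12 days and 0.16 with the club cell markers as a covariate. As above, these settings are not separate checks.

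Whether any P450 gene differed among the 8 groups was tested with 7 contrasts at once. By edgeR's adjusted p 0 of 28 passed, beside 0% of all genes, and DESeq2 and limma voom called 0 as well. Cyp2a3 had an unadjusted edgeR p of 0.0348, and 4.18% of all genes had one under 0.05. Cyp4v3 (unadjusted p = 0.0624), Cyp2b1 (0.116) and Cyp4f6 (0.117) followed in edgeR.

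The 20 mg/mL effect at 12 days minus that at 6 days also gave 0 P450 genes, and 0% of all genes, past the adjusted threshold in edgeR. Both other tools called 0 P450 genes. Cyp2b1 had an unadjusted p under 0.05, beside 3.81% of all genes. At 6 days Cyp2b1 stood at 390, 560 and 373 CPM at 20 mg/mL, against 378, 377 and 367 CPM in control (log2 fold change 0.24), where at 12 days the fold change was negative. The difference was -0.79 on the log2 scale (SE 0.37, unadjusted p = 0.0423, edgeR adjusted p = 1.00), and -0.49 without replicate 2 of 20 mg/mL at 12 days. Cyp2j10 was next, with a difference of -1.07.

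Between the days, averaged over the doses, 22 of 28 P450 genes had a higher fitted level at 12 days, beside 48.8% of all tested genes. The median log2 fold change was 0.05 for the P450 genes and -0.01 for all. In edgeR 0 passed the adjusted threshold, beside 0% of all genes, and DESeq2 and limma voom called 0 P450 genes. At an unadjusted p under 0.05 there was 1 P450 gene, beside 9.33% of all genes. This gene was Cyp2j4, at 5.11 ± 1.86 CPM at 12 days and 3.34 ± 1.54 CPM at 6 days (SD, n = 12 each), with a log2 fold change of 0.65 (SE 0.28, unadjusted p = 0.0286, edgeR adjusted p = 0.478). Cyp2b1 averaged 459 ± 119 CPM at 12 days and 381 ± 60.7 CPM at 6 days, a log2 fold change of 0.26 (SE 0.13, unadjusted p = 0.0608). The labels tie each library to a day and give no batch, so the day and the handling of its libraries cannot be told apart. Blood cell markers differed between the days as well: the 5 markers summed to 9997 to 29895 CPM at 12 days and 9745 to 69160 CPM at 6 days, and their part in these values was not tested.

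Over the 10 comparisons together, 12 of 280 tests of P450 genes in edgeR had an unadjusted p under 0.05 (4.29%), against 17 in DESeq2 (6.07%) and 33 in limma voom (11.8%). Over all tested genes the shares were 3.94% in edgeR, 4.71% in DESeq2 and 12.5% in limma voom. By the adjusted p, 0 of the P450 tests passed in each tool. Of 114210 tests of all genes, 3 passed in edgeR, 112 in DESeq2 and 41 in limma voom.

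The spread between libraries was unequal among the 27 expressed genes. The coefficient of variation over the 24 libraries had a median of 34.3%, was under 30% for 9 genes, and was over 100% for Cyp2a3 (249%) and Cyp2f4 (127%). Cyp4b1 (18.2%), Cyp20a1 (19.7%) and Cyp27a1 (21.7%) varied little. Cyp2f4 ranged from 0.121 CPM in replicate 2 of 20 mg/mL at 6 days to 211 CPM in replicate 2 of 20 mg/mL at 12 days. Cyp2a3 was at 0 in control replicate 1 of 12 days and at 343 CPM in replicate 2 of 20 mg/mL at 12 days. That library alone held the highest value of 7 expressed genes (among them Cyp2f4, Cyp2a3, Cyp21a1 and Cyp2u1) and the lowest value of 7 others (among them Cyp2b1, Cyp4b1, Cyp2b2 and Cyp2e1), and in it Cyp2b1, Cyp4b1, Cyp26b1 and Cyp2b2 together held 40.1% of the summed P450 level, the lowest share of any library.

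The 2 most variable genes were set against markers of cell types across libraries. Each of the 28 tested genes was compared with the mean log2 level of 8 marker lists, and Cyp2a3 with Cyp2f4, which made 225 relations over 24 libraries on the scale log2(CPM + 0.5). Permutation tests (two-sided, 100000 resamples) were adjusted over the 225, and 4 relations passed 0.05 by both Pearson's r and Spearman's rho. Cyp2f4 against the ciliated cell markers gave r = 0.90 and rho = 0.82 (permutation p = 1e-05 and 2e-05, adjusted p = 0.000563 and 0.0015). The value 1e-05 is the smallest that this number of resamples can give. Within 12 days r was 0.92 and within 6 days 0.89, and without the 2 libraries farthest from the median of the markers it was 0.82.

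Cyp2a3 against the same markers gave r = 0.86 and rho = 0.80 (permutation p = 1e-05 for both, adjusted p = 0.000563 and 0.00112). Its r was 0.94 within 12 days, 0.79 within 6 days and 0.84 without the 2 farthest libraries. Cyp2f4 against the club cell markers gave r = 0.82 and rho = 0.66 (permutation adjusted p = 0.000563 and 0.0306), with 0.83 within 12 days, 0.81 within 6 days and 0.69 without the 2 farthest libraries. Among these markers Bpifa1 ranged from 0.121 to 7873.5 CPM and Scgb3a1 from 0 to 308 CPM, while Scgb1a1 ranged from 3095 to 18349 CPM. The mean of the club cell markers, here and as a covariate, may therefore not track club cell number. The part of single markers was not tested. Cyp2a3 against Cyp2f4 gave r = 0.87 and rho = 0.88 (permutation adjusted p = 0.000563 and 0.00112), with 0.92 within 12 days and 0.82 within 6 days. No other pair of P450 genes was compared, and this pair was chosen after its values were seen. Its adjusted p does not cover the other pairs. Further relations, of Cyp2a3 and Cyp2f4 and of other genes, passed by only 1 of the measures. Cyp2a3 against the club cell markers gave r = 0.79 and rho = 0.63 (permutation adjusted p = 0.0009 and 0.0514). Against the heart muscle markers Cyp2a3 gave r = 0.69 and rho = 0.61 (permutation adjusted p = 0.003 and 0.0574) and Cyp2f4 r = 0.62 and rho = 0.69 (0.0614 and 0.0158). Cyp2a3 with the endothelial markers gave r = -0.66 and rho = -0.40 (permutation adjusted p = 0.0145 and 0.345). Cyp2s1 with the ciliated markers gave r = 0.73 and rho = 0.58 (permutation adjusted p = 0.0045 and 0.0706). Cyp2e1 with the heart muscle markers gave r = -0.65 and rho = -0.59 (permutation adjusted p = 0.00563 and 0.0574). All values of a library share its depth and scaling. The ciliated list had 6 of its 8 genes in the files, and each had a read in every library.

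The leading P450 genes did not pass by both measures in these relations. Cyp2b1 gave r = -0.49 and rho = -0.30 with the ciliated markers (permutation adjusted p = 0.0992 and 0.605) and r = -0.53 and rho = -0.26 with the club cell markers (0.0933 and 0.715). Without the 2 farthest libraries r was -0.42 with the ciliated and -0.08 with the club cell markers, within 12 days -0.50 and -0.59, and within 6 days -0.67 and -0.56. Cyp2b1 with the endothelial markers gave r = 0.72 and rho = 0.59 (permutation adjusted p = 0.01 and 0.0574), with 0.82 within 12 days, 0.38 within 6 days and 0.51 without the 2 farthest libraries. Cyp2b2 with the endothelial markers gave r = 0.63 and rho = 0.54 (permutation adjusted p = 0.0126 and 0.111). Cyp4b1 gave r = -0.18 with the ciliated markers (permutation adjusted p = 0.671).

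**Figure D4:**
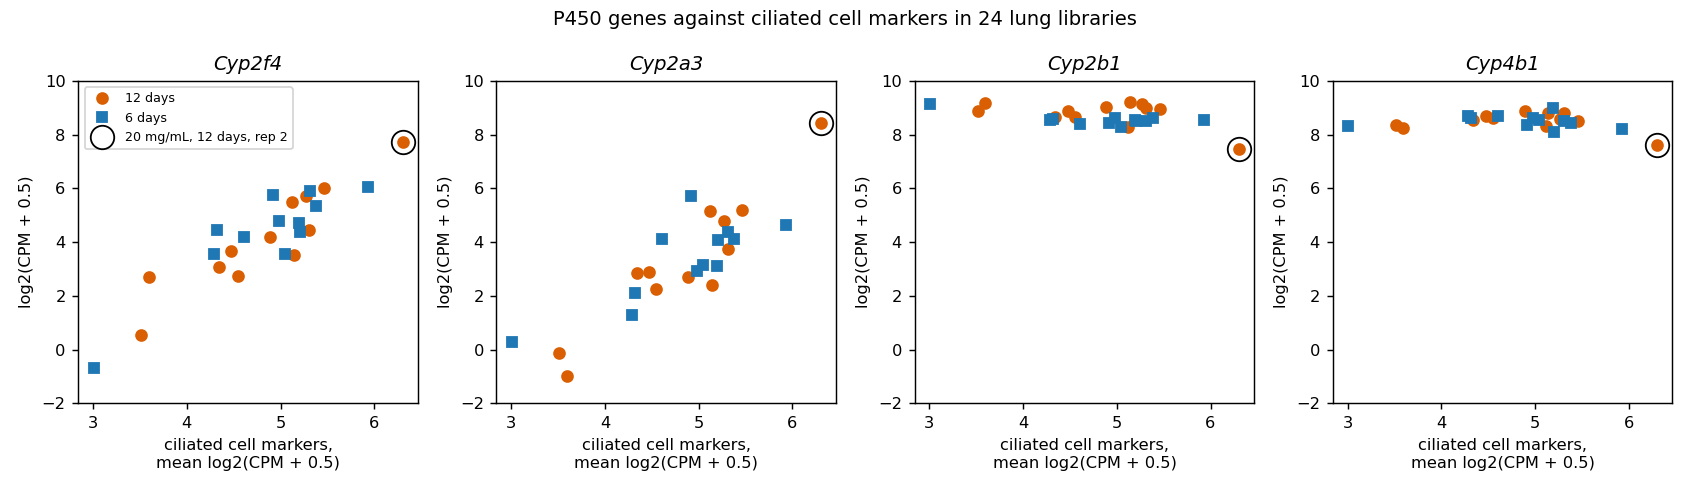
The x axis of each panel is the mean log2(CPM + 0.5) of 6 ciliated cell markers and the y axis the log2(CPM + 0.5) of 1 P450 gene; circles are 12 days, squares 6 days, and the ring marks replicate 2 of 20 mg/mL at 12 days. Cyp2f4 (r = 0.90) and Cyp2a3 (r = 0.86) climb with the markers over all libraries, while Cyp2b1 (r = -0.49) and Cyp4b1 (r = -0.18) have negative correlations that did not pass the adjusted threshold.

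The genes that serve P450 enzymes were present in these lungs and showed no called change. Of 10 electron partners in the files, Por, the NADPH-P450 reductase, averaged 240 CPM (170 to 303 CPM) and Cyb5a, cytochrome b5, 272 CPM. The mitochondrial ferredoxin Fdx1 averaged 27.5 CPM and its reductase Fdxr 8.85 CPM. In edgeR 0 of the 10 passed in any of the 10 comparisons, and DESeq2 and limma voom called 0 too. Of 100 tests, 8 in edgeR, 9 in DESeq2 and 18 in limma voom had an unadjusted p under 0.05, beside the 3.94%, 4.71% and 12.5% of all tested genes. Their median log2 fold change at 20 mg/mL was 0.01 at 12 days and -0.05 at 6 days, where all genes had 0.01 and -0.00. The ferredoxin Fdx1l had the smallest p at 20 mg/mL and 6 days (log2 fold change 0.67, SE 0.27, unadjusted p = 0.0199, edgeR adjusted p = 1.00). Por itself had a log2 fold change of -0.25 (SE 0.09, unadjusted p = 0.0115, edgeR adjusted p = 0.431) for 12 days against 6 days.

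Of 20 transcription factors known to regulate P450 genes, 14 were tested. Those named for drug-induced P450 genes in liver were near 0: Nr1i2 (the pregnane X receptor) had 29 reads in all libraries, Nr1i3 (the constitutive androstane receptor) 22, Ppara 19 and Hnf4a 7. Nr5a1, which drives the steroid genes of the adrenal, had 0. Rxra, of the same list, had 14 reads and was at 0 in 19 of the 24 libraries. Whether such counts reflect low expression or the counting of reads was not tested. The glucocorticoid receptor Nr3c1 averaged 241 CPM, the retinoic acid receptor Rara 93.2 CPM and Cebpb 109 CPM. In edgeR 0 of the 14 passed in the 10 comparisons, and DESeq2 and limma voom called 0. Of 140 tests, 7 in edgeR, 8 in DESeq2 and 20 in limma voom had an unadjusted p under 0.05, against the same shares of all genes. At 20 mg/mL and 6 days Cebpa had a log2 fold change of 0.71 (SE 0.24, edgeR adjusted p = 1.00).

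Of 21 other enzymes that oxidise or hydrolyse toxicants, 19 were tested. The esterase Ces1d averaged 427 CPM, the aldehyde dehydrogenase Aldh2 395 CPM and the flavin monooxygenase Fmo1 241 CPM, in the range of the leading P450 genes by reads. EdgeR called 0 in the 10 comparisons. Of 190 tests, 14 in edgeR, 15 in DESeq2 and 21 in limma voom had an unadjusted p under 0.05, beside 3.94%, 4.71% and 12.5% of all tested genes. Limma voom called 0 and DESeq2 called 1, the soluble epoxide hydrolase Ephx2 in the test of any difference among the 8 groups (unadjusted p = 0.00653 and adjusted p = 0.832 in edgeR). Of 114210 tests of all genes, DESeq2 called 112. Of the 12 genes of heme synthesis and breakdown, edgeR, DESeq2 and limma voom called 0 in the 10 comparisons, and of 120 tests 6 in edgeR, 6 in DESeq2 and 21 in limma voom had an unadjusted p under 0.05, against those shares of all genes. The smallest p was that of the heme oxygenase Hmox1 at 10 mg/mL and 12 days (log2 fold change 1.31, SE 0.35, unadjusted p = 0.000996, edgeR adjusted p = 1.00). The P450 genes outside the naming pattern averaged 70.7 CPM for the lanosterol demethylase Cyp51, 36.8 CPM for the prostacyclin synthase Ptgis and 16.5 CPM for the thromboxane synthase Tbxas1. All 3 tools called 0 of these 3 genes in the 10 comparisons, and of 30 tests 1 in edgeR, 1 in DESeq2 and 7 in limma voom had an unadjusted p under 0.05.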

How the data were processed

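Gene expression was measured by RNA sequencing of 24 rat lung samples, with libraries from a Lexogen Quant-Seq kit per the labels' protocols. The authors deposited 1 file per sample, with unnormalised counts of reads for each gene symbol. Bowtie2, bedtools and the build rn6 are named per the submitters' processing notes. No source used here gives their versions, the annotation, the strand setting or the handling of reads that match several genes.

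Each file had 17048 lines and 16881 distinct symbols. Of lines that share a symbol, the one with the most reads was kept, which left out 167 lines with 0.772% of the counts. In edgeR 4.0.16 (R 4.3.3) genes were kept by filterByExpr (11421 genes), scaled by TMM (factors 0.804 to 1.12) and fitted by quasi-likelihood in 1 model of the 8 group means, with 16 residual degrees of freedom. P-values are two-sided and adjusted by the Benjamini-Hochberg method over all tested genes, with a threshold of 0.05, and intervals are 95% intervals. CPM are taken after TMM scaling. The fit was tested on simulated data, but the outcome is not given here. Power for differences of the size reported here is not known from that test. The alternatives tried were RLE and upper-quartile scaling, no filter, DESeq2 1.42.0, voom of limma 3.58.1 with sample quality weights, fits of only the groups compared, a replicate block, 2 covariates (the club cell markers and the genes detected at equal depth), and each library left out in turn.

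The P450 genes, the other gene lists and the tests were chosen with earlier results of these data known. Every expressed P450 gene is given with its level. Fold changes and tests are given for the 4 P450 genes with the smallest p at 20 mg/mL on each day and in the test of the 8 groups, and for the 2 with the smallest p in the other comparisons. The values of 1 transcription factor are not reported here. The relations with marker lists and the comparison of non-overlapping groups were added after values were seen. Promoter windows come from RefSeq on build GRCr8, which is not the build of the counts. Of the 70 genes, 69 were matched by symbol and 55 had a window.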

Additional observations from a re-analysis of the deposited data

How the results depend on the processing

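The number of P450 genes past the adjusted threshold was 0 in all 10 comparisons and stayed at 0 in each of the 206 alternative counts, with every library left out in turn among them (lowest 0, highest 0). Few genes of any kind passed, with 3 of 114210 tests of all genes in the main edgeR fit. A steady count of 0 therefore says little about P450 genes in particular. The number expressed was 28 at a minimum of 0.5 CPM and 25 at 2 CPM, beside 27. Of the fold changes named in the report, 22 were computed under other settings, where 0 of 408 alternative values changed sign and 0 passed the threshold. These 22 were picked for small p-values in the same libraries. A stable sign was therefore likely and is not a separate check. The values that moved most were those of Cyp2a3 at 20 mg/mL and 12 days, from 0.59 (without replicate 2 of 20 mg/mL) to 5.77 (without control replicate 2), and its dose slope, from 0.16 to 1.51. Cyp2b1 in that comparison ranged from -1.01 (without replicate 3 of 20 mg/mL) to -0.25 (without replicate 2), and the cause was not tested beyond these values.

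The labels do not say that a replicate number pairs libraries, and not every same-numbered pair had a correlation over 0.1. Deviations from the group means correlated at a median of 0.03 for same-numbered libraries at 12 days (-0.16 to 0.20), against -0.03 for other numbers. At 6 days the medians were 0.18 (-0.21 to 0.62) and -0.12, and 8 of 12 libraries correlated best with their own number, against 4 of 12 at 12 days. The 4 replicate 3 libraries of 6 days had TMM factors of 1.07 to 1.10 and the 4 replicate 1 libraries 0.870 to 0.927. Whether the numbers mark a shared source at 6 days was not tested. With a replicate block within each day, 0 P450 genes passed in any comparison, and those at an unadjusted p under 0.05 were 3 at 20 mg/mL and 12 days, against 2 without the block. Such counts with the block are not given for 6 days or for all genes. What the block changes at 6 days cannot be read from these values. Genes near 1 CPM rest on few reads, so only large differences could be detected for them.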
